A study of Rattus norvegicus with 20 samples.

Results

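Mitosis and spindle genes, the genes whose products condense chromosomes, build the spindle and split the cell, were examined in cortical collecting ducts of rats. The set was a list of 42 gene symbols, and its members were the rows of the count table whose symbol was on the list and that had 3 or more counts in at least 3 libraries. Of the 42 symbols, 41 were found and all 41 met the count rule, out of 32545 genes in the table. Cks2 was not found by symbol. All 41 also passed the filter on low counts and were among the 14472 genes tested.

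Ducts were microdissected from 5-week-old male Sprague-Dawley rats. Every rat, controls included, carried a subcutaneous minipump that released DDAVP, an agonist of the vasopressin V2 receptor, at 5 ng per hour. Gelled food gave water-loaded rats 50 mL of water daily, and controls 25 mL. Each treatment had 3 rats at day 1, 4 at day 2 and 3 at day 4, with 1 library of amplified cDNA per rat. The study asked which transcripts change when the duct escapes from the antidiuretic action of vasopressin.

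In dividing cells, mitosis genes are switched on late in the cell cycle. Cyclin B and Cdk1 drive entry into mitosis, Polo and Aurora kinases mature the spindle, the spindle checkpoint holds the anaphase-promoting complex back until every kinetochore is attached, and kinesins and cytokinesis factors move and part the daughter chromosomes and cells. In the resting kidney tubule few cells divide. In human and mouse cells, many mitosis promoters carry a CHR element, often with CCAAT boxes, through which the DREAM and MuvB complexes and NF-Y act.

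Promoters of 36 of the 41 members were in the RefSeq table of build GRCr8, each covering 250 bases before the gene start and 50 after it; Racgap1, Aurkb, Ccna2, Tpx2 and Ube2c had none there. A CHR element (TTTGAA or TTTAAA on either strand) was in 34 of the 36 (94.4%), against 19.4% of the 10829 promoters of genes tested and 28.3% of all 33469 promoters of the table. At least 1 CCAAT box (CCAAT on either strand) was in 26 (72.2%), against 36.9% of promoters of genes tested, and 2 or more were in 20 (55.6%), against 13.3%. Both motifs were in 24 (66.7%), against 7.74%. These matches describe letters in a window and do not show that a factor binds there. The promoters of the 3 members that passed the test below and of Mki67, Plk1 and Cdk1 follow, written 5′ to 3′ on the strand of the gene, with CHR and CCAAT matches in capitals. They lie at chr1:191080829-191081128 on the minus strand (Kif22), chr4:97236259-97236558 on the plus strand (Mad2l1), chr3:126254446-126254745 on the plus strand (Knstrn), chr1:199952544-199952843 on the minus strand (Mki67), chr1:186147408-186147707 on the plus strand (Plk1) and chr20:19265043-19265342 on the plus strand (Cdk1).
Kif22: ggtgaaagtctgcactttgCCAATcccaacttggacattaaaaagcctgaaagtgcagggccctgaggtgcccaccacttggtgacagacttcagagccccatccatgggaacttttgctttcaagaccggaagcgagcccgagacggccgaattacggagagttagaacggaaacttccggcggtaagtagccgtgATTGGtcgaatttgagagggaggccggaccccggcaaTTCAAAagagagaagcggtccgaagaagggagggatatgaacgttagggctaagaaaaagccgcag
Mad2l1: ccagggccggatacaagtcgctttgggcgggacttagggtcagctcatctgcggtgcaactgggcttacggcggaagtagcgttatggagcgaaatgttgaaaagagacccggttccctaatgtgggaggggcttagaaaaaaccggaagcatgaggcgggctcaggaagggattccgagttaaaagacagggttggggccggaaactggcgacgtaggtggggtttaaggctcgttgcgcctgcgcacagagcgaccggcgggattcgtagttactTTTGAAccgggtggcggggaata
Knstrn: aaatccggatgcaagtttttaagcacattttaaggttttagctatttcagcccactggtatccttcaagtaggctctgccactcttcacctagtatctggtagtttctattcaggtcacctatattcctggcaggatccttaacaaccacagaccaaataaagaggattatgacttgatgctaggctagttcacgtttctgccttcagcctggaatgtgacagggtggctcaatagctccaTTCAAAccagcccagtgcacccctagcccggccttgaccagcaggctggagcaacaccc
Mki67: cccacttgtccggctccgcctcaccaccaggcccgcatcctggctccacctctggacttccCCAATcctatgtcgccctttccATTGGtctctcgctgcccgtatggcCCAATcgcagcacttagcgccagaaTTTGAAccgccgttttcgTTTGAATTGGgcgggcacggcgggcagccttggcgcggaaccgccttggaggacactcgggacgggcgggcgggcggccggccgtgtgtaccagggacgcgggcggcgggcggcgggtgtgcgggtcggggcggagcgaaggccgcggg
Plk1: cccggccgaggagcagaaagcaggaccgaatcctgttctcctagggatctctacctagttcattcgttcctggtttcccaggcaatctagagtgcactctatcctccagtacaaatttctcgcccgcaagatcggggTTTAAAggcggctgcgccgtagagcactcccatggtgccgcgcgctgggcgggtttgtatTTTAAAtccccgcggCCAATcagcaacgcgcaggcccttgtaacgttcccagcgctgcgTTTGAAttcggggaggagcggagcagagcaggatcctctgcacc
Cdk1: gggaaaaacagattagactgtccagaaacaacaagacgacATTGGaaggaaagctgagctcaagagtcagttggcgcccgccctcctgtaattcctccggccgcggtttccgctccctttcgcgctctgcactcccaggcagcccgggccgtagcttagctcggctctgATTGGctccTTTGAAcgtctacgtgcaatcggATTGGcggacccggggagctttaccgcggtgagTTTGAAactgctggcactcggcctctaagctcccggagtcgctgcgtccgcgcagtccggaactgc
Kif22 held 1 CHR match and 2 CCAAT matches, Mki67 held 2 and 4, Plk1 held 3 and 1, and Cdk1 held 2 and 3. Mad2l1 and Knstrn each held 1 CHR match and 0 CCAAT matches. In Mki67 a CHR match and a CCAAT match overlap by a base.

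The libraries held 33.5 to 74.9 M reads on genes, and 12665 to 15266 genes had a count. At day 4 this number was 14279 to 14482 in water-loaded rats and 13071 to 13804 in controls, without overlap. At days 1 and 2 it overlapped between treatments. Levels are given as CPM, counts scaled to the library size after TMM normalisation. The floor of 3 counts, under which a level is read as not detected, was 0.0415 to 0.0926 CPM by library, which covers counting error only. The principal cell and intercalated cell markers were all present in every rat (summed levels of 16119 to 72802 and 13019 to 22397 CPM). The sums of principal cell markers overlapped at days 1 and 2 and did not at day 4. They were at 17514 to 31116 CPM in day 1 water-loaded rats and 30019 to 43692 CPM in day 1 controls, at 16119 to 28536 CPM in day 2 water-loaded rats and 28002 to 43603 CPM in day 2 controls, and at 20183 to 29972 CPM in day 4 water-loaded rats and 37182 to 72802 CPM in day 4 controls. By group means, Aqp2 made up most of these sums. At day 4 it averaged 14127 CPM in water-loaded rats and 41215 CPM in controls, of mean sums of 24679 and 56971 CPM. Its fitted log2 difference at day 4 was -1.54, against a median of -0.33 over the 11 markers, of which 3 were higher. Markers of other cells varied between rats. Proximal tubule markers summed to 8559 CPM in day 1 water-loaded 2 and to 3042 CPM in day 2 control 1, and fibroblast markers to 1696 CPM in day 1 control 1. Loop and distal tubule markers summed to 13020 CPM in day 1 water-loaded 2, 6502 CPM in day 1 control 3 and 5700 CPM in day 2 water-loaded 4. Within that list, Calb1 alone ranged from 84 to 12930 CPM between rats. TMM factors were lowest in day 1 water-loaded 2, at 0.686, and in day 1 control 1, at 0.645. At day 4 they were 1.19 to 1.22 in water-loaded rats and 0.9043 to 1.166 in controls. In these bulk samples of duct, fewer dividing cells and less of a transcript per cell cannot be told apart.

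Summed over the members, mitosis and spindle genes were higher in water-loaded rats than in controls of the same day at days 2 and 4. At day 2 the 41 members summed to 1290, 774.7, 713.8 and 568.3 CPM in water-loaded rats, against 297.1, 462.1, 190.5 and 156.4 CPM in control rats. At day 4 the sums were 624.9, 413.3 and 188.5 CPM in water-loaded rats, against 157.3, 111.3 and 176.3 CPM in control rats. In neither comparison did the groups overlap, though day 4 water-loaded 3 lay just above its controls. At day 1 the sums overlapped, with 194.8, 371.9 and 244.6 CPM in water-loaded rats, against 432.9, 221.2 and 518.5 CPM in control rats. Of the 3 day 1 controls, 2 lay above 2 of the 3 day 4 water-loaded rats. In day 1 control 1, 232.2 CPM of the sum came from Kif23, a kinesin of the spindle midzone, named here after its value was seen. The number of members over 10 CPM was 31, 28, 23 and 19 in day 2 water-loaded rats, against 12, 15, 4 and 1 in control rats of that day. It was 20, 15 and 4 in day 4 water-loaded rats, against 4, 3 and 3 in control rats.

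**Figure D1:**
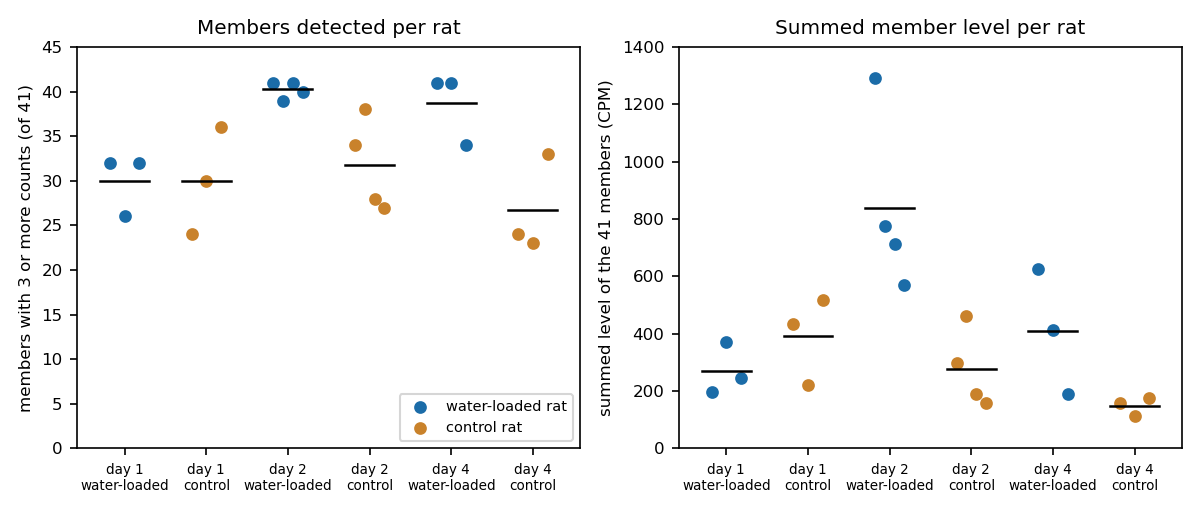
Each point is a rat, by day and treatment; the left panel counts members with 3 or more counts and the right panel sums the members' levels in CPM, with a line at the group mean. The 4 day 2 water-loaded rats detect 39 to 41 of 41 members and lie between 568.3 and 1290 CPM, above all day 2 control rats.

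**Figure D2:**
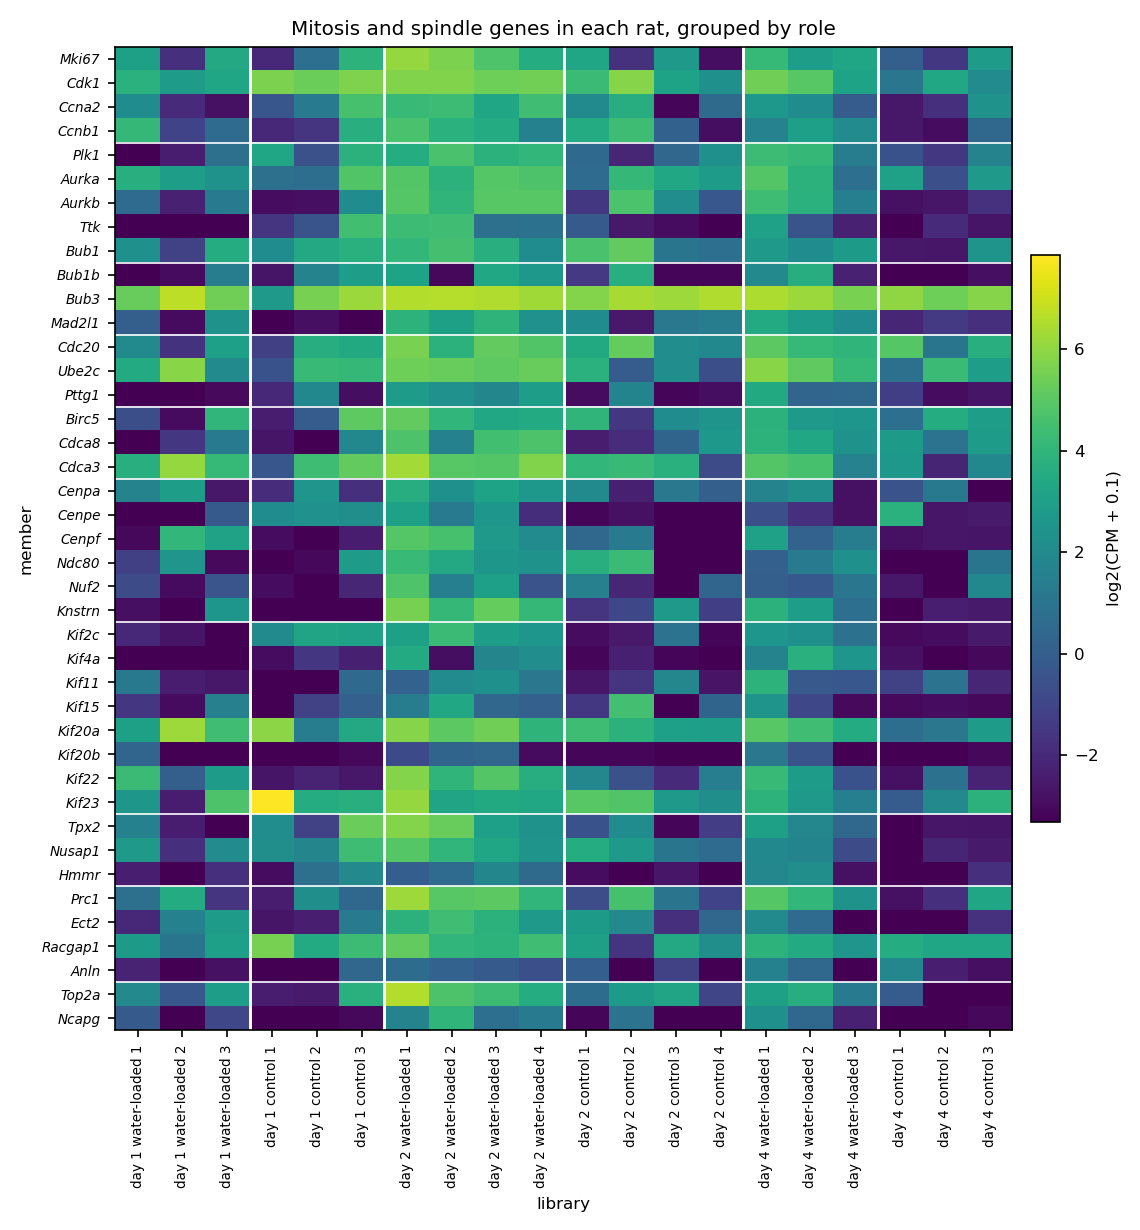
Each row is a member, grouped by role between white lines, each column a rat, and the colour is log2(CPM + 0.1). The day 2 water-loaded columns are the brightest block, and Bub3 is bright in nearly every column.

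The members differed widely in abundance. Per length, Bub3 had the highest mean level over all rats, 41.4 FPKM (a level per transcript length and library size, as deposited by the authors), followed by Cdk1 at 22.3 and Cdca3 at 15.4 FPKM, and Kif20b had the lowest, 0.0719 FPKM. Of the 6 groups, day 2 water-loaded rats held the highest mean in 31 of the 41 members, and day 4 water-loaded rats in 5. Of single rats, the highest of all 20 was a day 2 water-loaded rat for 22 members, and day 2 water-loaded 1 alone for 15. The same counts were not made over all genes. Within the groups, rats differed in step across members. Day 2 water-loaded 1 was the highest of its group in 24 members, day 4 water-loaded 1 in 32 and day 1 control 3 in 27, and day 4 water-loaded 3 was the lowest of its group in 33.

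Over the average of the 3 days, 3 members rose with the water load. They were Kif22, a chromokinesin that pushes chromosome arms toward the spindle equator; Mad2l1, the checkpoint protein that holds Cdc20 inactive; and Knstrn, a kinetochore-bound spindle protein also called kinastrin. In edgeR's quasi-likelihood test adjusted over all genes, these 3 of 41 were called, where 0.159% of all genes tested were. A further 12 members had an unadjusted p under 0.05, so that 15 of 41 (36.6%) did, all higher in water-loaded rats, where 7.42% of all genes were higher at that p. The median log2 difference was 1.75 over the members and 0.01 over all genes, and 36 members were higher. The next smallest adjusted p values were 0.0599 for Cenpf and 0.0946 for Kif20b.

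Kif22 stood at 19.8, 0.953 and 7.21 CPM in day 1 water-loaded rats, against 0.0553, 0.11 and 0.0657 CPM in control rats. At day 2 it stood at 55.7, 15.9, 28.9 and 12.5 CPM in water-loaded rats, against 3.49, 0.584, 0.151 and 2.63 CPM in control rats. At day 4 it stood at 19.2, 6.84 and 0.597 CPM in water-loaded rats, against 0.0428, 1.73 and 0.111 CPM in control rats. The groups did not overlap at days 1 and 2, and at day 4 a single water-loaded rat lay below a control rat. The log2 difference over the average of days was 4.91 ± 0.91 (SE; n = 10 water-loaded and 10 control rats; adjusted p = 0.0379, edgeR). The day 1 controls held 12 counts of Kif22 in all, so this size rests in part on values near the floor.

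Mad2l1 stood at 0.938, 0.0265 and 5.34 CPM in day 1 water-loaded rats, against 0, 0.0366 and 0 CPM in control rats. At day 2 it stood at 15.1, 8.14, 15.3 and 4.9 CPM in water-loaded rats, against 4.19, 0.0712, 2.14 and 2.54 CPM in control rats. At day 4 it stood at 11.4, 6.92 and 4.2 CPM in water-loaded rats, against 0.128, 0.278 and 0.184 CPM in control rats. All 7 water-loaded rats of days 2 and 4 lay above every control rat of their day, while at day 1 a water-loaded rat was at a single count. Its log2 difference was 4.88 ± 0.95 (SE; adjusted p = 0.0482, edgeR). The day 1 controls held 2 counts of Mad2l1 in all, so this size rests in part on values under the floor.

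Knstrn stood at 0.0368, 0 and 5.84 CPM in day 1 water-loaded rats, against 0 in all 3 control rats. At day 2 it stood at 46.7, 17.6, 37.3 and 17.5 CPM in water-loaded rats, against 0.218, 0.441, 6.45 and 0.324 CPM in control rats. At day 4 it stood at 14.5, 7.34 and 1.61 CPM in water-loaded rats, against 0, 0.0926 and 0.0737 CPM in control rats. At day 1 a single water-loaded rat carried the signal, whose group mean was at least 31.4-fold higher than the controls' floor of 3 counts per library. The fitted log2 difference of 6.93 ± 1.32 (SE; adjusted p = 0.0482, edgeR) rests in part on these controls at 0 and is no bound.

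The 3 calls lay close to the threshold. Leaving out single libraries ended the call of Kif22 in 15 of 20 cases, of Mad2l1 in 18 and of Knstrn in 16. All 3 calls held without day 1 water-loaded 2. Kif22 alone was called without day 2 control 1, day 2 control 4 or day 4 control 2, Knstrn alone without day 2 control 3, Knstrn and Kif22 without day 4 water-loaded 3, Mad2l1 and Ncapg without day 2 control 2, and Cenpf and Knstrn without day 1 water-loaded 1. No member was called by edgeR without any of the other 12 libraries, nor with replicate number as a block. DESeq2 called 10 members (5.08% of its genes) and limma-voom 5 (0.408%), Kif22, Mad2l1 and Knstrn among them in both.

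For 16 of the 41 members, Kif22, Plk1, Aurka, Cdca3, Kif4a, Kif11, Kif20a, Tpx2 and Nusap1 among them, another gene overlaps in the RefSeq table. The use of strand in counting is not given in the sources used here, so reads of such pairs cannot be told apart.

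**Figure D3:**
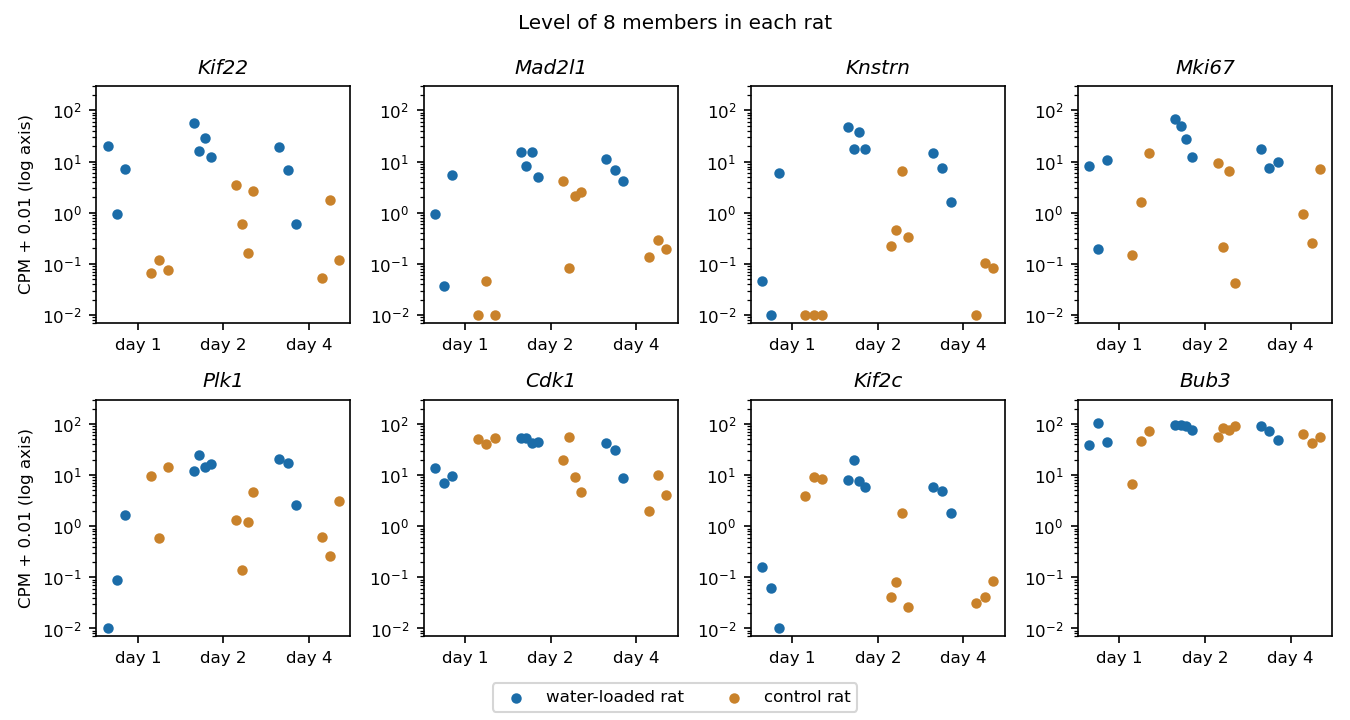
Each panel is a member and each point a rat, by day, with CPM + 0.01 on a log axis. Water-loaded rats of days 2 and 4 lie mostly above their controls for Kif22, Mad2l1, Knstrn, Mki67 and Kif2c, Kif2c and Cdk1 lie below them at day 1, and Bub3 overlaps at every day.

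After 2 days of water load, 39 of 41 members were higher than in control rats, with a median log2 difference of 2.27 over the members and -0.05 over all genes. No member was called at this day alone. In edgeR's test 0 members passed adjustment over all genes (0% of all genes did; smallest member adjusted p = 0.694), and 14 members (34.1%) had an unadjusted p under 0.05, all higher in water-loaded rats, where 2.76% of all genes were. In 18 members (43.9%) the lowest water-loaded rat lay above the highest control rat, against 2.35% of all genes. DESeq2 called 4 members at day 2, Cenpe, Kif2c, Kif4a and Kif22 (0.553% of its genes), and limma-voom called Kif2c (0.131%).

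Among the cyclins and Cdk1, Mki67, the proliferation marker that coats mitotic chromosomes, stood at 67.9, 50.1, 27.8 and 12.2 CPM in day 2 water-loaded rats, against 9.35, 0.199, 6.46 and 0.0324 CPM in control rats. Its groups did not overlap (log2 difference 3.30 ± 1.54, SE). Cdk1, the kinase of mitotic entry, stood at 53.7, 53.4, 42.5 and 44 CPM in water-loaded rats, against 19.5, 56.6, 8.97 and 4.73 CPM in control rats. Water-loaded rats were alike, and the spread lay among the controls, 1 of which was the highest of the 8. Ccnb1, cyclin B1, stood at 24.9, 13.9, 11.6 and 2.87 CPM in water-loaded rats, against 11.6, 21, 1.03 and 0.0324 CPM in control rats, which overlapped. Ccna2, cyclin A, averaged 17.5 ± 5.38 CPM in water-loaded rats and 4.43 ± 5.51 CPM in control rats (n = 4 each, SD).

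Of the 5 mitotic kinases, 4 were higher at day 2. Plk1, the Polo kinase of centrosome maturation, stood at 12.1, 25.1, 14.6 and 16.6 CPM in water-loaded rats, against 1.32, 0.128, 1.18 and 4.75 CPM in control rats. The groups did not overlap (log2 difference 3.21 ± 1.43, SE). Aurkb, the catalytic subunit of the chromosomal passenger complex, stood at 30.3, 16, 30.7 and 30.5 CPM in water-loaded rats, against 0.249, 25.8, 4.32 and 0.713 CPM in control rats. Control 2 of that day reached the water-loaded range, while the other 3 controls lay well under it. Aurka, the centrosomal Aurora kinase, averaged 25.1 ± 7.25 CPM in water-loaded rats and 8.97 ± 6.61 CPM in controls (n = 4 each, SD). Ttk, the checkpoint kinase Mps1, averaged 11.2 ± 11 CPM in water-loaded rats and 0.228 ± 0.389 CPM in controls, with no overlap. Bub1, a kinetochore kinase and the member of the 5 that was not higher, averaged 14.3 ± 8.02 CPM in water-loaded rats and 16.2 ± 17.2 CPM in controls.

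The checkpoint partners of Mad2l1 behaved less evenly at day 2. Bub1b, which encodes BubR1, stood at 8.91, 0.0173, 10.3 and 6.19 CPM in water-loaded rats, against 0.265, 12.9, 0.0151 and 0.0162 CPM in control rats. In both groups the rat numbered 2 went against the others. Bub3, their binding partner, stood at 94.4, 96.6, 92.5 and 77.3 CPM in water-loaded rats, against 55.7, 83.3, 74.4 and 90.9 CPM in control rats, and the groups overlapped (log2 difference 0.25 ± 0.49, SE). Cdc20, the activator of the anaphase-promoting complex that the checkpoint restrains, stood at 48.3, 14.6, 36.4 and 27.8 CPM in water-loaded rats, against 11.1, 36.8, 4.42 and 3.6 CPM in control rats. Again control 2 lay within the water-loaded range. Ube2c, the ubiquitin-conjugating enzyme of that complex, averaged 37.9 ± 2.83 CPM in water-loaded rats and 4.93 ± 6.29 CPM in controls (n = 4 each, SD). Pttg1, the securin that guards separase, averaged 5.72 ± 1.89 CPM in water-loaded rats and 0.814 ± 1.57 CPM in controls. For both genes the groups did not overlap.

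Of the chromosomal passenger partners and division-associated members, Cdca3, an adaptor for the destruction of Wee1, stood at 79.9, 31.1, 28.9 and 53.1 CPM in water-loaded rats, against 16.6, 18.4, 13.5 and 0.486 CPM in control rats. Its groups did not overlap. Birc5, survivin, averaged 18.5 ± 12 CPM in water-loaded rats and 6.4 ± 6.6 CPM in controls (n = 4 each, SD). Cdca8, borealin, averaged 19.7 ± 11.3 CPM in water-loaded rats and 1.86 ± 2.84 CPM in controls. Both overlapped between the groups.

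All 6 kinetochore and centromere members were higher at day 2, and 4 of them, Cenpa, Cenpe, Cenpf and Knstrn, did not overlap. Cenpe, the kinesin that carries chromosomes to the spindle equator, stood at 8.43, 2.39, 5.69 and 0.173 CPM in water-loaded rats, against 0.0156, 0.0427, 0 and 0 CPM in control rats. The controls had at most 3 counts, so the fitted log2 difference of 7.93 ± 2.36 (SE) depends on values near the floor. Cenpf, a large kinetochore protein, averaged 16.3 ± 12.9 CPM in water-loaded rats and 0.924 ± 1.17 CPM in control rats. Cenpa, the centromeric histone, averaged 7.99 ± 3.32 CPM in water-loaded rats and 1.75 ± 1.64 CPM in control rats. For Ndc80 and Nuf2, partners in the microtubule-binding complex of the kinetochore, the log2 differences were 0.33 ± 2.14 and 3.22 ± 1.89 (SE), and the groups overlapped.

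Of the 8 kinesins, 7 were higher at day 2, and Kif2c, Kif20b and Kif22 did not overlap. Kif2c, the microtubule-shortening kinesin MCAK, stood at 8.02, 19.6, 7.6 and 5.82 CPM in water-loaded rats, against 0.0312, 0.0712, 1.83 and 0.0162 CPM in control rats (log2 difference 4.39 ± 1.45, SE). Only control 3 was clearly above the floor, and it lay under every water-loaded rat. Kif4a, a chromosome-bound kinesin, stood at 11.4, 0.0347, 3.3 and 4.31 CPM in water-loaded rats, against 0.0156, 0.0997, 0.0151 and 0 CPM in control rats. Water-loaded 2 was at control level. Kif11, the motor that parts the spindle poles, averaged 2.99 ± 1.74 CPM in water-loaded rats and 0.972 ± 1.72 CPM in controls (n = 4 each, SD). Kif15, which can take its place, averaged 3.72 ± 4.36 CPM in water-loaded rats and 6.06 ± 11.2 CPM in controls and was the kinesin that was not higher. Kif20a, a kinesin of cytokinesis, averaged 37 ± 17.5 CPM in water-loaded rats and 12.6 ± 6.23 CPM in controls, and Kif23, of the midzone, 24.5 ± 28.7 CPM in water-loaded rats and 17.5 ± 13.9 CPM in controls. Kif20b, with the lowest level of the 41, averaged 0.701 ± 0.552 CPM in water-loaded rats and 0.00745 ± 0.00863 CPM in controls, where the controls lay under the floor.

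Of the spindle assembly members at day 2, Tpx2, the activator of Aurora A on the spindle, averaged 26.6 ± 24.3 CPM in water-loaded rats and 1.28 ± 1.95 CPM in control rats. Nusap1, a microtubule bundler, averaged 15.4 ± 10.9 CPM in water-loaded rats and 5.41 ± 4.92 CPM in controls. Hmmr, a spindle pole protein, averaged 1.77 ± 1.1 CPM in water-loaded rats and 0.0229 ± 0.029 CPM in controls (n = 4 each, SD). Tpx2 and Hmmr did not overlap. The 4 cytokinesis members were all higher, with log2 differences of 1.61 to 2.52. Racgap1, a protein of the midzone, did not overlap, at 22.1 ± 9.43 CPM in water-loaded rats and 5.87 ± 4.5 CPM in control rats. Prc1, which bundles midzone microtubules, averaged 38.7 ± 25 CPM in water-loaded rats and 6.75 ± 11.7 CPM in controls. Ect2, a cytokinesis factor, averaged 14.2 ± 6.2 CPM in water-loaded rats and 2.95 ± 2.9 CPM in controls, and Anln, anillin, 0.962 ± 0.371 CPM in water-loaded rats and 0.313 ± 0.427 CPM in controls. All 3 overlapped. Top2a, the topoisomerase that untangles sister chromatids, stood at 95.8, 26.4, 19.9 and 11.9 CPM in water-loaded rats, against 1.45, 6.65, 9.2 and 0.405 CPM in control rats, with no overlap. Ncapg, a condensin subunit, averaged 5.73 ± 6.78 CPM in water-loaded rats and 0.46 ± 0.909 CPM in control rats (n = 4 each, SD).

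Over all genes, the day 2 rats numbered 1 and 2 and those numbered 3 and 4 deviated weakly together from their group means across treatments (r of 0.11 to 0.236). Over the members alone, r lay between -0.00788 and 0.315 for these pairs, and between -0.337 and 0.0481 for the other pairs. Within rats 1 and 2 alone, 37 members were higher with a median log2 difference of 2.14, and within rats 3 and 4 alone 41 were, with a median of 2.86. Sums of the markers of other cells overlapped between the day 2 groups. Endothelial markers, 4 of 8 tested higher, summed to 181.6 to 849.4 CPM in water-loaded rats and 84.6 to 982 CPM in controls. Immune markers, 11 of 14 higher, summed to 175.1 to 746.9 CPM in water-loaded rats and 159.2 to 1005 CPM in controls. Fibroblast and pericyte markers, 5 of 6 higher, summed to 29 to 123.1 CPM in water-loaded rats and 24.4 to 65.7 CPM in controls. Of the proximal tubule markers 1 of 16 was higher, and they summed to 112.8 to 227.4 CPM in water-loaded rats and 178.1 to 3042 CPM in controls. Loop and distal tubule markers, 2 of 6 higher, summed to 794.2 to 5700 CPM in water-loaded rats and 323.4 to 1147 CPM in controls. Over all 20 libraries, Slc5a2 of the proximal tubule was at 0 in 10, Ptprc of leukocytes in 12 and Lum of fibroblasts in 18. The part of these cells in the result was not tested.

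**Figure D4:**
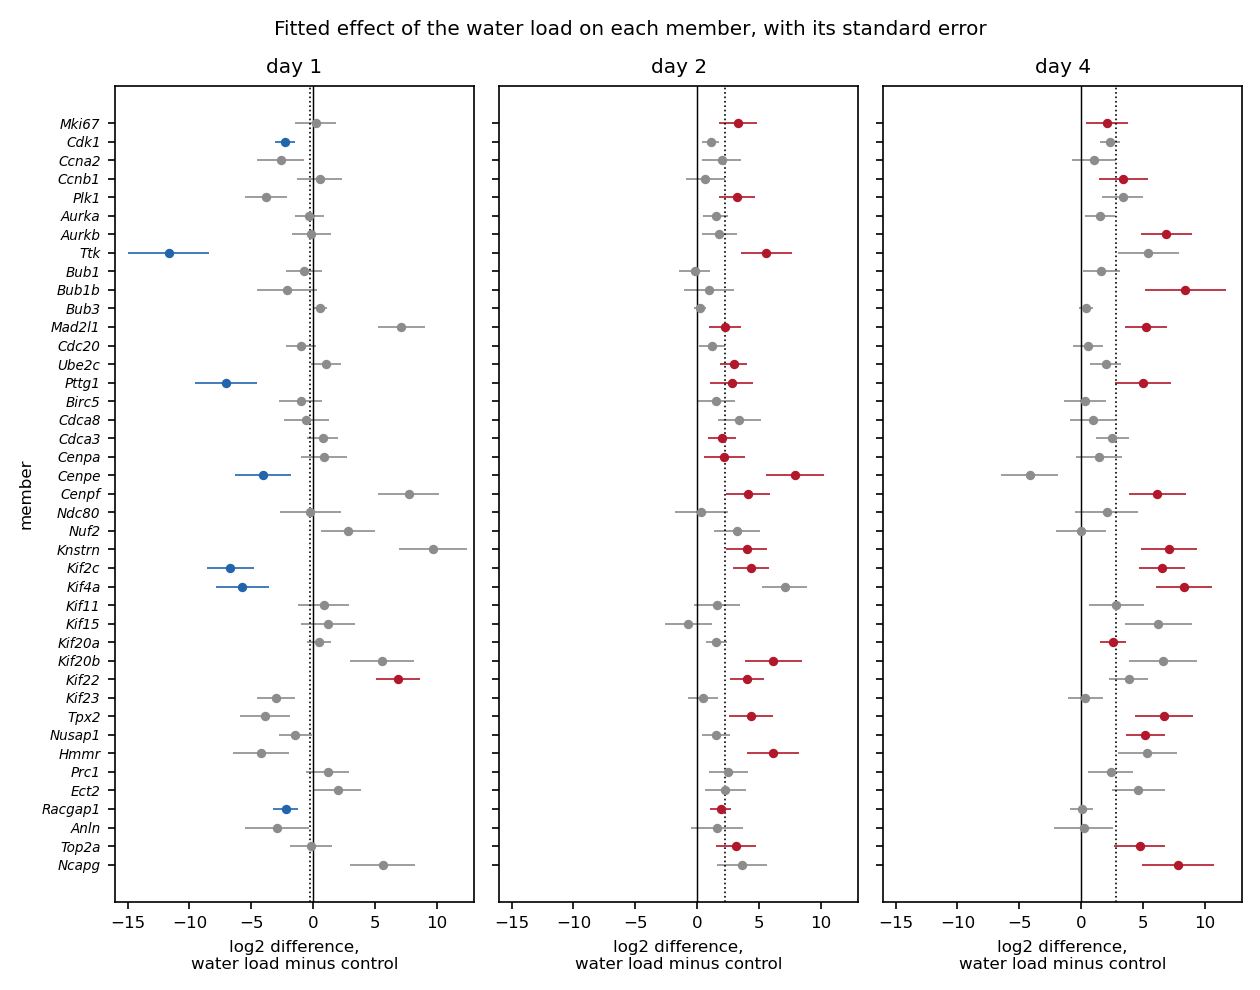
Fitted log2 difference of each member at each day (points; bars are SE), red where the lowest water-loaded rat lay above the highest control rat, blue where the highest lay below the lowest control rat, with the members' median as a dotted line. At days 2 and 4 the points lie right of 0 for 39 of 41 members, and at day 1 for 18.

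After 4 days, 39 of 41 members were again higher in water-loaded rats than in controls, though 36 of the 41 had a lower mean in these water-loaded rats than in those of day 2. The median log2 difference was 2.84 over the members and 0 over all genes. In edgeR's test 0 members were called (0% of all genes; smallest member adjusted p = 0.674), and 20 members (48.8%) had an unadjusted p under 0.05 and were higher, where 5% of all genes were. In 15 members (36.6%) the 2 groups did not overlap in that direction, against 7.93% of all genes. DESeq2 called 9 members (2.29% of its genes) and limma-voom 0 (0%). Without day 4 control 3 the median log2 difference was 4.97. Day 4 water-loaded rats also had more genes with a count than controls. With that number as a covariate, 36 members were higher, with a median of 3.33. Its part in the result was not tested.

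Mki67 stood at 17.9, 7.49 and 9.59 CPM in day 4 water-loaded rats, against 0.941, 0.247 and 7.17 CPM in control rats. Cdk1 stood at 42.8, 30.6 and 8.75 CPM in water-loaded rats, against 1.99, 9.9 and 4.15 CPM in control rats (log2 difference 2.36 ± 0.82, SE). Ccnb1 stood at 2.97, 7.87 and 4.06 CPM in water-loaded rats, against 0.0642, 0.0309 and 1.29 CPM in control rats. Mki67 and Ccnb1 did not overlap, and for Cdk1 the third water-loaded rat lay between the controls.

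Plk1 stood at 20.3, 17.5 and 2.59 CPM in day 4 water-loaded rats, against 0.599, 0.247 and 3.06 CPM in control rats. Aurkb stood at 20.9, 14.1 and 2.7 CPM in water-loaded rats, against 0.0428, 0.0617 and 0.203 CPM in control rats (log2 difference 6.89 ± 2.06, SE). These controls held 15 counts of Aurkb in all, so this size rests in part on values near the floor. Of the 2 kinases, Aurkb did not overlap and Plk1 did, in water-loaded rat 3. Bub1b stood at 3.78, 12.5 and 0.103 CPM in water-loaded rats, against 0, 0 and 0.0369 CPM in control rats, where the controls had at most 2 counts. Bub3 stood at 89.7, 71.3 and 49 CPM in water-loaded rats, against 64.8, 42.5 and 56.3 CPM in control rats. Cdc20 stood at 32.7, 17.9 and 16 CPM in water-loaded rats, against 29.8, 1.91 and 12.9 CPM in control rats. Bub3 and Cdc20 overlapped. Cdca3 did too, at 28.7, 24.2 and 2.96 CPM in water-loaded rats and 6.12, 0.123 and 3.6 CPM in control rats.

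All 8 kinesins were higher at day 4. Kif2c stood at 5.8, 4.84 and 1.77 CPM in water-loaded rats, against 0.0214, 0.0309 and 0.0737 CPM in control rats (log2 difference 6.52 ± 1.88, SE). Kif4a stood at 3.07, 13.6 and 5.68 CPM in water-loaded rats, against 0.0428, 0 and 0.0184 CPM in control rats (log2 difference 8.31 ± 2.26, SE). Both were at 4 counts or fewer in every control rat, so these fitted sizes rest on values at the floor. Kif20a averaged 21.3 ± 9.6 CPM in water-loaded rats and 3.56 ± 3.09 CPM in control rats and did not overlap. Top2a stood at 8.01, 12.5 and 2.39 CPM in water-loaded rats, against 0.856, 0 and 0 CPM in control rats, and did not overlap.

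At day 4 Tpx2 averaged 4.3 ± 3.5 CPM in water-loaded rats and 0.039 ± 0.0339 CPM in controls (n = 3 each, SD). Nusap1 averaged 2.44 ± 1.7 CPM in water-loaded rats and 0.0657 ± 0.0621 CPM in controls, and neither gene overlapped between the groups. The controls held 5 counts of Tpx2 and 8 of Nusap1 in all, near the floor. The cytokinesis members were less even, with log2 differences of 0.03 for Racgap1, 0.19 for Anln, 2.39 for Prc1 and 4.61 for Ect2. For Ect2 the controls held 11 counts in all, so its size rests in part on values near the floor. The 2 members that were lower at day 4 belong to the kinetochore. Nuf2 averaged 1.23 CPM in both groups. Cenpe stood at 0.565, 0.182 and 0.0412 CPM in water-loaded rats, against 14.1, 0.0617 and 0.0737 CPM in control rats, where a single control rat held nearly all the signal.

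Day 4 water-loaded 3 stood nearest to the controls, and with it left out 39 members were higher with a median of 3.37. The sums of fibroblast and pericyte markers did not overlap between the day 4 groups. All 6 tested were higher, and the list summed to 15 to 74.5 CPM in water-loaded rats and 6.65 to 9.32 CPM in controls. Endothelial markers, 8 of 8 higher, summed to 32.7 to 483.5 CPM in water-loaded rats and 88.6 to 291.8 CPM in controls. Immune markers, 9 of 14 higher, summed to 173 to 320.2 CPM in water-loaded rats and 73.3 to 208.9 CPM in controls. Proximal tubule markers, 14 of 16 higher, summed to 120.5 to 482.8 CPM in water-loaded rats and 66.4 to 182.4 CPM in controls. Loop and distal tubule markers, 3 of 6 higher, summed to 288.6 to 1148 CPM in water-loaded rats and 202.7 to 1209 CPM in controls. Their part in the result was not tested.

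After 1 day the members did not move as a group. Of the 41, 18 were higher and 23 lower, with a median log2 difference of -0.23 over the members and 0 over all genes. In edgeR's test 0 members were called (0% of all genes; smallest member adjusted p = 0.186). Of 13 members with an unadjusted p under 0.05, 6 were higher, where 8.6% of all genes were, and 7 were lower, where 6.98% were. Kif22 was the 1 member whose water-loaded rats all lay above the controls, against 5.71% of all genes, and in 7 members all lay below, against 5.17%. DESeq2 called 8 members at day 1 (8.08% of its genes) and limma-voom 0 (0.0138%).

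The members that lay below at day 1 were Cdk1, Ttk, Pttg1, Cenpe, Kif2c, Kif4a and Racgap1. Cdk1 stood at 13.8, 7.09 and 9.78 CPM in water-loaded rats, against 50.9, 41.3 and 52.6 CPM in control rats (log2 difference -2.24 ± 0.81, SE; adjusted p = 0.239, edgeR). Kif2c stood at 0.147, 0.0529 and 0 CPM in water-loaded rats, against 3.95, 9.23 and 8.33 CPM in control rats (log2 difference -6.68 ± 1.88, SE; adjusted p = 0.207, edgeR). Cenpe stood at 0, 0 and 0.806 CPM in water-loaded rats, against 4.25, 4.93 and 4.49 CPM in control rats. These 3 were well above the floor in all 3 controls. Kif4a was at 0 in all 3 water-loaded rats and at 0.0276, 0.238 and 0.0986 CPM in control rats, near the floor on both sides. Ttk was at 0 in all 3 water-loaded rats and averaged 7.68 ± 12.5 CPM in controls (n = 3 each, SD), at least 115-fold lower in water-loaded rats with the floor of 3 counts per library in place of 0. Nearly all of that control mean came from control 3.

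Most other members overlapped at day 1. Mki67 stood at 8.09, 0.185 and 10.8 CPM in water-loaded rats, against 0.138, 1.61 and 14.8 CPM in control rats. Plk1 stood at 0, 0.0794 and 1.63 CPM in water-loaded rats, against 9.56, 0.586 and 14.4 CPM in control rats. Both overlapped. Aurkb stood at 1.4, 0.106 and 2.42 CPM in water-loaded rats, against 0.0276, 0.0366 and 4.24 CPM in control rats. Top2a stood at 3.79, 0.715 and 7.63 CPM in water-loaded rats, against 0.0829, 0.0733 and 13.5 CPM in control rats. Bub3 stood at 38.6, 106 and 43.7 CPM in water-loaded rats, against 6.55, 46.9 and 73.4 CPM in control rats. For Aurkb, Top2a, Mki67 and Plk1 control 3 was the highest of the 6 rats. Without day 1 control 3, 25 members were higher and the median log2 difference was 1.39, so the direction at day 1 turned without that rat. It also turned with replicate number as a block, where 23 members were higher with a median of 0.90. With day 1 control 1 and day 1 water-loaded 2 set aside, 14 members were higher with a median of -0.86. Of the proximal tubule markers 16 of 16 were higher at day 1, with sums of 120.7 to 8559 CPM in water-loaded rats and 98.7 to 1031 CPM in controls. Of the endothelial markers 1 of 8 was higher, with sums of 73 to 556.7 CPM in water-loaded rats and 192.1 to 1258 CPM in controls. Of the fibroblast and pericyte markers 2 of 6 were higher, with sums of 58.3 to 95.2 CPM in water-loaded rats and 34.6 to 1696 CPM in controls. Immune markers, 10 of 14 higher, summed to 162 to 423.9 CPM in water-loaded rats and 117.1 to 221 CPM in controls. Loop and distal tubule markers, 4 of 6 higher, summed to 1686.5 to 13020 CPM in water-loaded rats and 391.8 to 6502 CPM in controls. The highest of these control sums was that of control 3. Their part in these values was not tested.

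The effect of the water load was also compared between days. In edgeR's F test 0 members were called (0% of all genes; smallest member adjusted p = 0.43), and 12 members had an unadjusted p under 0.05 (29.3%), where 8.56% of all genes did. The smallest unadjusted p were those of Kif2c (0.000268), Kif4a (0.000799) and Ttk (0.00131). DESeq2 called 8 members, Cdk1, Plk1, Ttk, Pttg1, Cenpe, Kif2c, Kif4a and Tpx2 (1.58% of its genes), and limma-voom called Kif2c (0.00691%). Kif2c, Cenpe, Pttg1, Ttk and Racgap1 lay entirely below the controls at day 1 and entirely above them at day 2. How many of all genes did both was not counted. Taken singly, 5.17% of all genes lay below at day 1 and 2.35% above at day 2.

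Among water-loaded rats, the group mean was higher at day 2 than at day 1 in all 41 members and higher at day 2 than at day 4 in 36. In edgeR's F test over the 3 days 0 members were called (0.263% of all genes were; smallest member adjusted p = 0.117, Kif4a), and 6 had an unadjusted p under 0.05 (14.6%), where 12.1% of all genes did. DESeq2 called 4 members (4.36% of its genes) and limma-voom 5 (0.656%). Among control rats, the group mean was lower at day 4 than at day 1 in 27 members and lower at day 4 than at day 2 in 32. In edgeR's F test over the 3 days of these controls, 0 members were called (2.45% of all genes were; smallest member adjusted p = 0.0516, Kif2c), and 16 had an unadjusted p under 0.05 (39%), where 22.5% of all genes did. DESeq2 called 11 members (12.5% of its genes) and limma-voom 3 (3.56%). The orders of group means by day were counted for the members only, not over all genes. These control rats are the same as in the comparisons above. Kif2c, for instance, averaged 7.17 ± 2.83 CPM (SD, n = 3) in controls of day 1, 0.486 ± 0.894 CPM (n = 4) in those of day 2 and 0.042 ± 0.0279 CPM (n = 3) in those of day 4.

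Other genes of the pathway were taken from lists of textbook members, written with earlier results of these data known. Of 70 other mitosis genes tested, 62 were higher at day 2 (median log2 difference 1.43) and 61 at day 4 (2.10), against 26 at day 1 (-0.42). Over the average of days the smallest adjusted p in edgeR was 0.0541, for Aspm, a spindle pole protein, which averaged 5.31 ± 7.26 CPM in water-loaded rats and 0.212 ± 0.422 CPM in control rats (n = 10 each, SD). Of 47 genes of the G1/S transition and replication, 28 were higher at day 1 (median 0.37), 41 at day 2 (1.30) and 43 at day 4 (0.89). Uhrf1 and Cdca7 rose on average over days (log2 differences 4.97 ± 0.98 and 7.87 ± 1.52, SE; adjusted p = 0.0482 and 0.0491, edgeR), 2 of 47 where 0.159% of all genes were called. Uhrf1 averaged 4.97 ± 4.9 CPM in water-loaded rats and 0.0964 ± 0.127 CPM in controls (n = 10 each, SD). Cdca7 averaged 2.37 ± 3.22 CPM in water-loaded rats and 0.00483 ± 0.00784 CPM in controls. These control means lay near the floor for Uhrf1 and under it for Cdca7, so both sizes rest in part on such values.

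Not every list tied to mitosis moved this way by its median. The 16 tested subunits of the anaphase-promoting complex, present in resting cells too, had medians of -0.0034, 0.27 and 0.24 at days 1, 2 and 4, and the 10 of cohesin, the ring that holds sister chromatids together, 0.21, 0.19 and -0.19. The 16 CDK inhibitors and mitotic brakes had medians of -0.40, -0.09 and 0.45, and the 23 transcription factors of G2/M and the DREAM complex 0.67, 0.18 and 0.23. Of these 23, 12 were higher at day 2 and 17 over the average of days, where 50.97% of all genes were. Among them Foxm1 averaged 36.9 ± 25 CPM in day 2 water-loaded rats and 5.36 ± 3.75 CPM in controls (n = 4 each, SD). Its log2 difference was 2.78 ± 1.34 (SE). Over the average of days, the smallest adjusted p in edgeR was 0.136 among the subunits of the anaphase-promoting complex, 0.337 in cohesin and 0.155 among the brakes. It was 0.0535 among the transcription factors, for E2f1, an activator of cell cycle entry, which stood at 11.7 ± 3.2 CPM in day 2 water-loaded rats and 0.238 ± 0.252 CPM in control rats (n = 4 each, SD). At day 1 its means ran the other way, with 11 ± 12.6 CPM in water-loaded rats and 30.7 ± 39 CPM in controls (n = 3 each, SD). Over all days it averaged 9.95 ± 7.15 CPM in water-loaded rats and 9.33 ± 23.6 CPM in controls (n = 10 each, SD). E2f1 was also called in edgeR's F test of the days among control rats (adjusted p = 0.00777). Its control mean at day 4 was 0.0226 CPM, under the floor. Of the pathway lists, Cdkn1b among the brakes and Gmnn and Slbp of G1/S and replication were called in that test too, where 2.45% of all genes were.

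**Figure D5:**
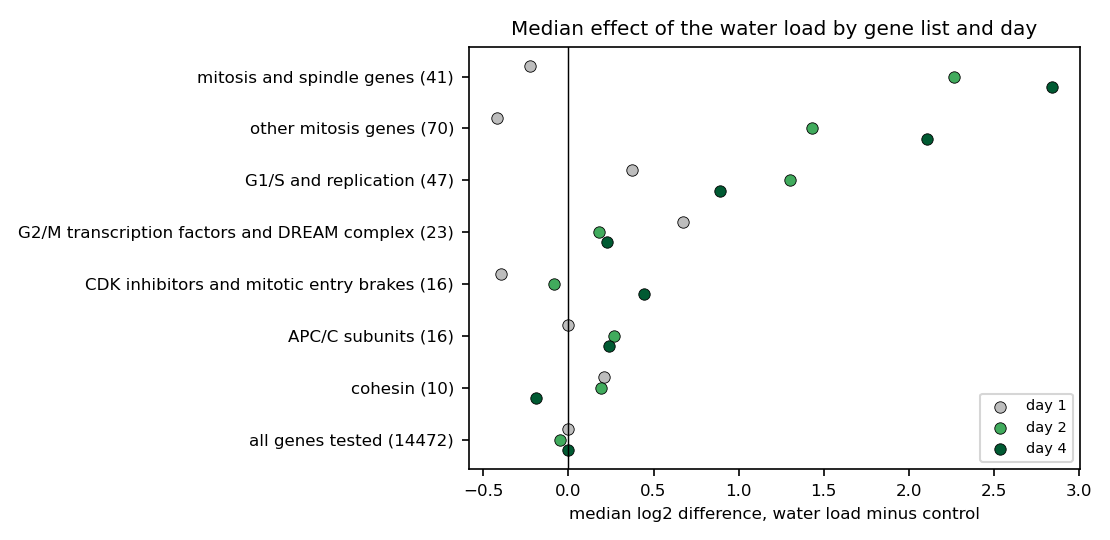
Median log2 difference, water load minus control, of each gene list (rows; number of genes tested in brackets) at days 1, 2 and 4. The mitosis and spindle genes lie at 2.27 and 2.84 at days 2 and 4, and all genes tested near 0.

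A row annotated as CDC28 protein kinase regulatory subunit 2, the protein that Cks2 encodes, stood under a locus symbol outside the list, with a log2 difference at day 2 of 2.18 ± 1.18 (SE).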

How the data were processed

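RNA of cortical collecting ducts from 20 rats was sequenced, 1 library per rat, and libraries were grouped by the labels into 6 groups of treatment and day. The counts are whole numbers of reads per gene, deposited by the authors, and the FPKM values are the authors' own rescaling of them. Per the submitters' processing notes, Trimmomatic 0.32, STAR 2.4.0.1, SAMtools, HTSeq and build rn6 were used; the annotation and the use of strand were not given in the sources used here. Between 31.45% and 35.61% of counts sat on lines without a gene, which were not used. The cDNA was amplified without molecular identifiers that the sources used here mention, so floors cover counting error only.

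The test of the counts was that of edgeR 4.0.16 (R 4.3.3). There filterByExpr by group left 14472 of 32545 genes, then TMM factors, a robust quasi-likelihood fit of all 20 libraries with a mean per group, and 7 tests. SE is the log2 difference divided by the square root of F. P values were adjusted by Benjamini and Hochberg's method across every gene tested, and those under 0.05 were called. DESeq2 1.42.0, limma 3.58.1 (voom), log2(FPKM + 1) and log2(FPKM + 0.1), other filters and size factors, a replicate block, covariates and left-out libraries were alternatives. The scripts were tested on simulated counts, with changes set only in genes above the median level and a smaller spread between rats than in these data. The median biological coefficient of variation of these data, their spread between rats relative to the mean, was 1.06. The simulation therefore does not show how the test behaves at that spread or near the floor.

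The members and lists were chosen with earlier results of these data known. Values by rat are given for 8 fixed members (Mki67, Plk1, Cdk1, Ccnb1, Cdc20, Aurkb, Bub1b and Top2a), for members called, for those with the smallest p at a day and for the 3 with the highest FPKM; other members are given by group.

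Over all genes, same-numbered rats at day 2 deviated together from their group means (r of 0.148, 0.147, 0.154 and 0.236), but at days 1 and 4 they did not (-0.0907 to 0.0595). At day 2 rats 1 with 2 and 3 with 4 of the other treatment correlated about as much (0.11 to 0.204). The day 2 numbers therefore cannot be told apart from a split of rats 1 and 2 from rats 3 and 4.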

Additional observations from a re-analysis of the deposited data

Results flagged for a closer look

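In the day 2 groups of 4 rats, the rat farthest from the others was tested by its gap to the nearest rat over the range of the group, against Dixon's critical value. Of 32 groups tested 7 passed it. All 7 belong to members given by rat, of which Kif2c and Kif4a were named for a small p at day 2. No share over all genes was counted. That value stands for a chance of 5% in independent groups of normally spread values. CPM was skewed in many of these groups, and members moved in step within rats. The share expected by chance is therefore not known here. Aurkb stood at 16 CPM in water-loaded 2, below the other 3 rats of its group, and at 25.8 CPM in control 2, above the other controls. Bub1b stood at 12.9 CPM in control 2. Kif2c stood at 19.6 CPM in water-loaded 2 and at 1.83 CPM in control 3. Knstrn stood at 6.45 CPM in control 3. Kif4a stood at 0.0997 CPM in control 2, which is near the floor.

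For 6 members, water-loaded rats lay entirely to one side of the controls at one day and to the other side at another day. The share of all genes that did so was not counted. In edgeR's test of the difference of the effect between days, the adjusted p was 0.4299 for Ttk, Pttg1, Cenpe, Kif2c and Kif4a and 0.4869 for Racgap1, so none passed. The unadjusted p was 0.00131 for Ttk, 0.00624 for Pttg1, 0.00221 for Cenpe, 0.000268 for Kif2c, 0.000799 for Kif4a and 0.0165 for Racgap1. The 6 members were picked by the separation of these same values, so their p values are not independent of that choice.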

How the results depend on the processing

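Under the alternatives tried with all libraries of a day, the members' median log2 difference over the average of days lay between 0.71 and 2.35 and at day 2 between 1.49 and 3.82 (3.817 with limma-voom), above 0 throughout. At day 4 it was 1.024 with log2(FPKM + 1) and 2.435 to 4.97 with single libraries left out (4.97 without day 4 control 3). At day 1 it was -0.9996 to 1.391 with single libraries left out (1.391 without day 1 control 3) and 0.9042 with the replicate block, where 23 of 41 members were higher, and with day 1 libraries alone 11 of the 29 members left were higher.

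The number of members called over the average of days, 3 in edgeR, was 10 with DESeq2, 5 with limma-voom, 1 with a filter of 3 counts in 3 libraries, 1 with day 1 control 1 and day 1 water-loaded 2 set aside, 0 with the replicate block, 0 with detected genes as a covariate, and 0 to 3 with single libraries left out. In edgeR, 0 members were called in each of the other 6 tests. DESeq2 called 8 at day 1, 4 at day 2, 9 at day 4, 8 for the difference between days, 11 for the days among control rats and 4 for the days among water-loaded rats. Limma-voom called 1 at day 2, 1 for the difference between days, 3 among control rats and 5 among water-loaded rats. For the days among control rats, DESeq2 size factors gave 1, log2(FPKM + 1) 1, log2(FPKM + 0.1) 1, a day 2 term that sets libraries 3 and 4 apart gave 2, and single libraries left out 0 to 4. Among water-loaded rats log2(FPKM + 1) gave 2 and log2(FPKM + 0.1) 2, and log2(FPKM + 0.1) gave 1 for the difference between days.

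Over the average of days, the log2 difference of Cenpe changed sign: it was 0.7459 with the detected-genes covariate, 0.05817 with the day 2 term, 0.06693 with the 2 day 1 libraries set aside and -2.396 to 1.924 with single libraries left out. Plk1 ranged from -0.3719 to 1.454 and Cdc20 from -0.04475 to 0.644, both below 0 only without day 1 water-loaded 3. The cause was not tested. The day 2 term and the split of the day 2 libraries were chosen after seeing the data. Kif4a and Cenpe were at a few counts or 0 in some groups, where the size of a fold is not fixed by the counts.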
